A study of Mus musculus with 12 samples.

Results

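The transcriptomes of ΔN-VEGF cells and their wild type parent line were compared after 16 h in a hypoxia chamber held below 0.2% oxygen. NIH3T3 is a mouse embryo fibroblast line. The ΔN-VEGF line was made from it with Cas9 and a pair of guide RNAs that remove the N-terminal extension of the long VEGF-A isoform, together with donor cassettes for drug selection. Single resistant clones were picked, the cassettes were taken out with VCre recombinase, and non-fluorescent cells were sorted 2 times, so the line descends from picked single clones, whereas the wild type cells did not go through this selection. The sources used here do not say which clone was sequenced. The comparison used the 3 ΔN-VEGF hypoxia samples and the 3 wild type hypoxia samples, 6 of the 12 samples in the series. The other 6 were samples of the same lines kept in normoxia (air with carbon dioxide) for the same time. All genes were eligible, and 13845 of the 54446 genes in the count table had enough counts to be tested.

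VEGF-A is a secreted angiogenic growth factor whose transcription is switched on by the hypoxia-inducible factors (HIFs), which are stabilised when oxygen falls. A longer form is translated from an upstream non-canonical start codon and is cut into the secreted VEGF and an N-terminal piece, N-VEGF, which stays in the cell. Hypoxic fibroblasts usually raise glycolysis and angiogenic genes, slow their cell cycle and alter the matrix they secrete.

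Both guides lie in exon 1 of Vegfa (GRCm38, minus strand, gene body chr17:46016993-46032369). The guides are shown because they define the edit, with the protospacer in lower case and the adjacent NGG motif, read from the reference transcripts, in capitals.
gRNA1, protospacer at chr17:46031824-46031843: tcggcagcccgccggcgaggAGG
gRNA4, protospacer at chr17:46031399-46031418: ctcgcagtccgagccggagaGGG
Each matched once in the annotated transcripts that hold it, gRNA1 on the strand opposite to Vegfa and gRNA4 on the Vegfa strand. Both lay in coding sequence of 5 annotated transcripts that start upstream of the canonical start codon, and gRNA4 also lay upstream of the annotated start codon of 1 further transcript.

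Each hypoxia sample held between 30519052 and 40249519 counts over genes. Log2 levels correlated at r = 0.997 to 0.999 between samples of a line and at 0.983 to 0.985 between the lines (across genes, which are not independent replicates). No pair of replicates was as close as counting noise alone would make it. Nothing in the labels says whether the samples of a group were separate cultures, so the p-values measure the spread between these samples. Levels below are CPM (each gene's counts scaled to a library of 1000000) adjusted by trimmed mean of M-values (TMM) factors over the 12 samples, and a positive log2 fold change means a higher level in ΔN-VEGF.

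Of the 13845 genes, 567 were called higher (4.10%) and 795 lower (5.74%) in ΔN-VEGF, that is, at least 2-fold apart at a Benjamini-Hochberg adjusted p below 0.05 in edgeR's quasi-likelihood test. In all, 9.84% were called. At the adjusted p alone, without a fold limit, 57.0% passed, 27.9% higher and 29.1% lower. A total of 140 called genes were at least 4-fold higher and 144 at least 4-fold lower, and 61.9% of all tested genes did not overlap between the lines. Of the 1362 called genes, 1343 did not overlap, so non-overlap adds little to a call. With library totals in place of TMM, the median of all genes moved from -0.02 to -0.23 and the calls split into 397 higher and 1219 lower, so the share of called genes that were higher went from 41.6% to 24.6%. Each count of called members in a group is read against 4.10% higher and 5.74% lower. Group medians moved with the scaling and are given with both scalings where the value changes sign or by more than 1.5 times.

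**Figure D1:**
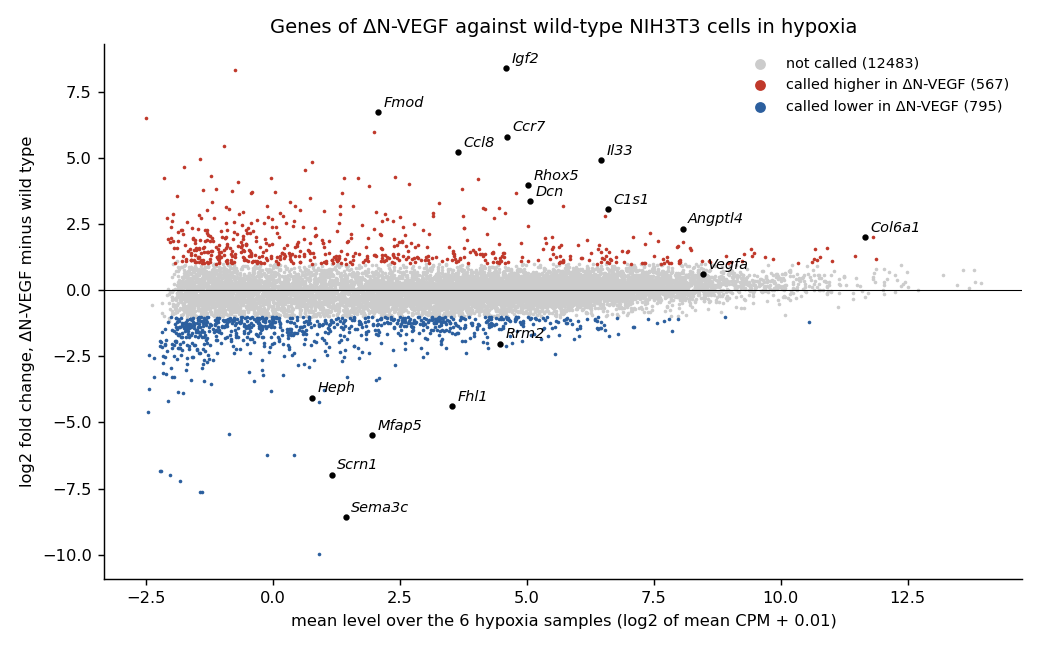
Each point is 1 of 13845 tested genes, with the mean level over the 6 hypoxia samples (log2 of mean CPM + 0.01) on the x axis and the log2 fold change of ΔN-VEGF over wild type on the y axis. The 567 genes called higher are red and the 795 called lower are blue. Igf2, Fmod and Ccr7 stand highest among the labelled genes and Sema3c, Scrn1 and Mfap5 lowest.

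The transcript of the targeted gene was more abundant in the deleted line. Vegfa stood at 277, 272 and 291 CPM in the wild type samples and 437, 419 and 430.1 CPM in the ΔN-VEGF samples, 1.52-fold higher without overlap (log2 fold change 0.61 ± 0.05 (SE, n = 3 per line), edgeR adjusted p = 5.3e-08), below the 2-fold limit. In normoxia the order was the opposite, with 86.1, 39.4 and 82.6 CPM in wild type and 37.3, 34.2 and 35.5 CPM in ΔN-VEGF, a difference that did not pass the test there (edgeR adjusted p = 0.4). The interaction of line and oxygen did pass (log2 1.57 ± 0.32, edgeR adjusted p = 0.028). Because the edit removes only a stretch of the first exon, the gene count does not show whether the deletion is present, and it does not check the line labels.

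The oxygen-sensing machinery stood higher in ΔN-VEGF. Of its 9 tested genes, 8 were higher and 1 lower at the adjusted p, and 3 were called, with a median log2 fold change of 0.60 against -0.02 over all genes, or 0.39 against -0.23 with library totals. Hif1a, the oxygen-regulated subunit of HIF-1, stood at 173, 138 and 172 CPM in wild type and 347, 338 and 366 CPM in ΔN-VEGF (log2 fold change 1.11 ± 0.07 (SE, n = 3 per line), edgeR adjusted p = 1.9e-09). Arnt2, a dimer partner of HIF subunits, went from 3.63, 5.13 and 4.28 to 10.8, 9.68 and 9.72 CPM (1.22 ± 0.12, edgeR adjusted p = 1.5e-07). Hif3a, at or below 0.156 CPM in each wild type sample, reached 0.908, 0.868 and 1.01 CPM (3.12 ± 0.36, edgeR adjusted p = 1.4e-06). The groups did not overlap for any of these 3 genes, but with library totals the log2 fold change of Hif1a was 0.90, below the 2-fold limit. Vhl, the ubiquitin ligase subunit that marks HIF subunits for destruction, was higher at the adjusted p but under 2-fold (0.92), as was the prolyl hydroxylase Egln1 (0.60), while Egln3, another prolyl hydroxylase, was the 1 lower member (-0.47).

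The HIF target genes leaned the same way. Of 33 tested, 28 were higher and 3 lower at the adjusted p, against 27.9% and 29.1% of all genes, and the median was 0.52 (0.31 with library totals), but only 3 reached 2-fold. Angptl4, a secreted inhibitor of lipoprotein lipase, showed the widest difference, at 88, 90.9 and 89 CPM in wild type and 458, 429 and 455 CPM in ΔN-VEGF (log2 fold change 2.32 ± 0.06 (SE, n = 3 per line), edgeR adjusted p = 5.3e-15). The selenium-binding proteins Selenbp1 (159, 170.5 and 149.6 against 355, 365 and 347 CPM, 1.15 ± 0.06, edgeR adjusted p = 7.4e-11) and Selenbp2 (1.23 ± 0.08, edgeR adjusted p = 2.1e-09) were also called. Their sequences are close to each other, so the division of reads between them is uncertain, and with library totals Selenbp1 came to 0.94. Other classical targets stayed under 2-fold, among them the glucose transporter Slc2a1 (0.50), the carbonic anhydrase Car9 (0.59), the mitophagy receptor Bnip3 (0.42) and the lipid droplet protein Hilpda (0.72), all at an adjusted p below 0.05. Adm, which encodes adrenomedullin, gave 0.02 and did not pass. In the 12-sample model, 4 of these targets passed the interaction test at the adjusted p in edgeR, against 3.36% of all genes, while 10 passed in DESeq2 and 24 in edgeR without both normoxia samples numbered 2. These other 2 fits called the interaction at 2-fold for 610 and 2501 genes, against 230 in the main fit. Their list counts, here and below, have no share over all genes beside them and cannot be read against 3.36%.

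Glycolytic genes showed smaller shifts. Of 24 tested, 16 were higher and 4 lower at the adjusted p, with a median of 0.29 (0.08 with library totals). Hexokinase 1 (Hk1), which traps glucose in the cell, stood at 949.7, 1068 and 973 CPM in wild type and 2202, 2312 and 2185 CPM in ΔN-VEGF (1.16 ± 0.06, edgeR adjusted p = 9.9e-11), or 0.94 with library totals. Slc2a3, a glucose transporter, went from 3.71, 3.87 and 2.65 to 11.3, 9.13 and 11.1 CPM (1.63 ± 0.13, edgeR adjusted p = 2.2e-08). Pfkfb1, an isoform of the enzyme that sets fructose 2,6-bisphosphate, was the 1 called lower (3.58, 3.49 and 3.34 against 1.41, 1.54 and 1.69 CPM, -1.17 ± 0.14, edgeR adjusted p = 3e-06). Ldha and Gapdh were higher by 0.39 and 0.20 and Pgk1 lower at -0.32, all below 2-fold.

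Among angiogenic ligands and receptors, 2 of 14 were called higher and 3 lower (14.3% and 21.4%, median -0.05, or -0.26 with library totals). Angptl2, a secreted angiopoietin-like factor, was higher beside Angptl4 (970.2, 1069 and 997 against 2142, 2120.3 and 2101 CPM, 1.06 ± 0.06, edgeR adjusted p = 1.4e-10), though at 0.85 with library totals. Flt1, a VEGF receptor, stood at 3.66, 4.07 and 3.79 CPM in wild type and 0.971, 1.25 and 1.29 CPM in ΔN-VEGF (log2 fold change -1.71 ± 0.16 (SE, n = 3 per line), edgeR adjusted p = 8.6e-08). Tie1, an orphan receptor of the angiopoietin system (-1.7 ± 0.21, edgeR adjusted p = 3.6e-06), and its ligand-system partner Angpt2 (-1.43 ± 0.29, edgeR adjusted p = 0.00053) were lower too, both below 2 CPM in every hypoxia sample. In a model of all 12 samples, which takes the spread of the normoxia samples into its estimate, Flt1 kept its fold but not the adjusted p (edgeR adjusted p = 0.1).

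The widest rises in well-expressed genes (a mean of at least 10 CPM over the 6 samples) were, in order, Igf2, Ccr7, Ccl8, Il33, Tspan33, Rhox5, Spns3 and Rtn4rl2. Igf2, a fetal growth factor, was nearly absent from wild type at 0.208, 0.0685 and 0.127 CPM and stood at 49.7, 46.7 and 48 CPM in ΔN-VEGF (log2 fold change 8.38 ± 0.15 (SE, n = 3 per line), edgeR adjusted p = 1.6e-16). Ccr7, the receptor that guides immune cells to lymph nodes, went from 0.83, 0.787 and 0.942 to 50.9, 47.3 and 46.1 CPM (5.79 ± 0.11, edgeR adjusted p = 2e-16). Il33, an alarmin cytokine held in the nucleus, went from 6.02, 4.93 and 5.91 to 169, 171 and 173 CPM (4.91 ± 0.08, edgeR adjusted p = 4.9e-17). In all 3 cases the lowest ΔN-VEGF sample was more than 10 times the highest wild type one. Also among the 8 were Tspan33, a tetraspanin (1.74, 1.54 and 1.76 against 30.3, 32.4 and 30.6 CPM, 4.19 ± 0.10, edgeR adjusted p = 3.1e-15), Spns3, a member of the spinster transporter family (1.58, 2.26 and 1.5 against 25.6, 24.5 and 24.3 CPM, 3.82 ± 0.11, edgeR adjusted p = 1e-13), and Rtn4rl2, a Nogo receptor-like protein (4.23, 4.35 and 3.34 against 55.7, 50.1 and 47.2 CPM, 3.68 ± 0.10, edgeR adjusted p = 2.8e-14). Ccl8 and Rhox5 are described with their families.

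Igf2, Tspan33 and Spns3 were also read in normoxia. Igf2 stood at 6.48, 0.0464 and 3.58 CPM in wild type and 1.25, 32.9 and 1.54 CPM in ΔN-VEGF there, and its interaction of line and oxygen did not pass the test (edgeR adjusted p = 0.11). Tspan33 (0.821, 1.16 and 1.39 against 1.57, 1.4 and 1.45 CPM) and Spns3 (0.228, 0.0928 and 0.0578 against 0.0215, 0.118 and 0.147 CPM) were low in both lines in normoxia. Their interactions passed (log2 3.82 ± 0.24, edgeR adjusted p = 6.6e-05 for Tspan33, and 4.2 ± 0.70, edgeR adjusted p = 0.013 for Spns3).

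Falls of the same kind began with Fhl1, a LIM-domain protein of muscle and mesenchymal cells, at 21.7, 22 and 22.2 CPM in wild type and 1.28, 1.22 and 0.644 CPM in ΔN-VEGF (log2 fold change -4.4 ± 0.14 (SE, n = 3 per line), edgeR adjusted p = 1.8e-13). Ngef, a guanine nucleotide exchange factor, went from 76.6, 86.4 and 75.4 to 15.8, 16.5 and 12.7 CPM (-2.41 ± 0.09, edgeR adjusted p = 1.1e-12). Acsbg1, which activates long-chain fatty acids, went from 22.5, 25 and 22.8 to 4.57, 4.57 and 4.6 CPM (-2.36 ± 0.09, edgeR adjusted p = 1.1e-12). Non-overlap between the lines was a condition for naming these rises and falls, so it is not a result about them. Eps8l2, an actin regulator (17.1, 18.6 and 16.7 against 3.48, 4.02 and 4.11 CPM, -2.18 ± 0.10, edgeR adjusted p = 1.2e-11), and Slfn9, a Schlafen protein (32.1, 27.8 and 33 against 7.39, 6.17 and 6.83 CPM, -2.2 ± 0.09, edgeR adjusted p = 5.6e-12), followed. The remaining 3 of the 8 largest falls were the S-phase genes Hells, Rrm2 and Pclaf.

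Some genes were close to silent in 1 line only. A total of 12 called genes had at most 3 counts in every wild type hypoxia sample, and 32 had at most 3 counts in every ΔN-VEGF hypoxia sample. Madcam1, an adhesion ligand for lymphocyte integrins, had 0 counts in the 3 wild type samples together and 113 in the ΔN-VEGF samples, at least 42.1-fold higher against a floor of 3 counts over the group. Pcdha9, a clustered protocadherin, had 7 counts against 111 (ratio 17.7, 95% counting interval 8.33 to 45.1), and 1600012P17Rik had 2 against 94 (ratio 52.6, interval 14.2 to 441). In the other direction, Sema3c, a secreted guidance cue, had 579 counts in wild type and 1 in ΔN-VEGF (ratio 518, interval 92.5 to 20477). Scrn1, which encodes secernin, had 470 against 3 (ratio 140.0, interval 47.6 to 681). 4930452B06Rik had 401 against 0, at least 119-fold lower. These intervals cover counting error only.

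Sema3c, Scrn1 and 4930452B06Rik held the same order in normoxia. Sema3c stood at 2.62, 2.07 and 2.5 CPM in wild type and 0.0215, 0 and 0 CPM in ΔN-VEGF in normoxia. Scrn1 stood at 11.9, 6.75 and 12 against 0, 0.118 and 0.049 CPM and 4930452B06Rik at 1.16, 1.32 and 0.886 against 0, 0 and 0 CPM. The lowest wild type sample was above the highest ΔN-VEGF sample for each, in both oxygen conditions.

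**Figure D2:**
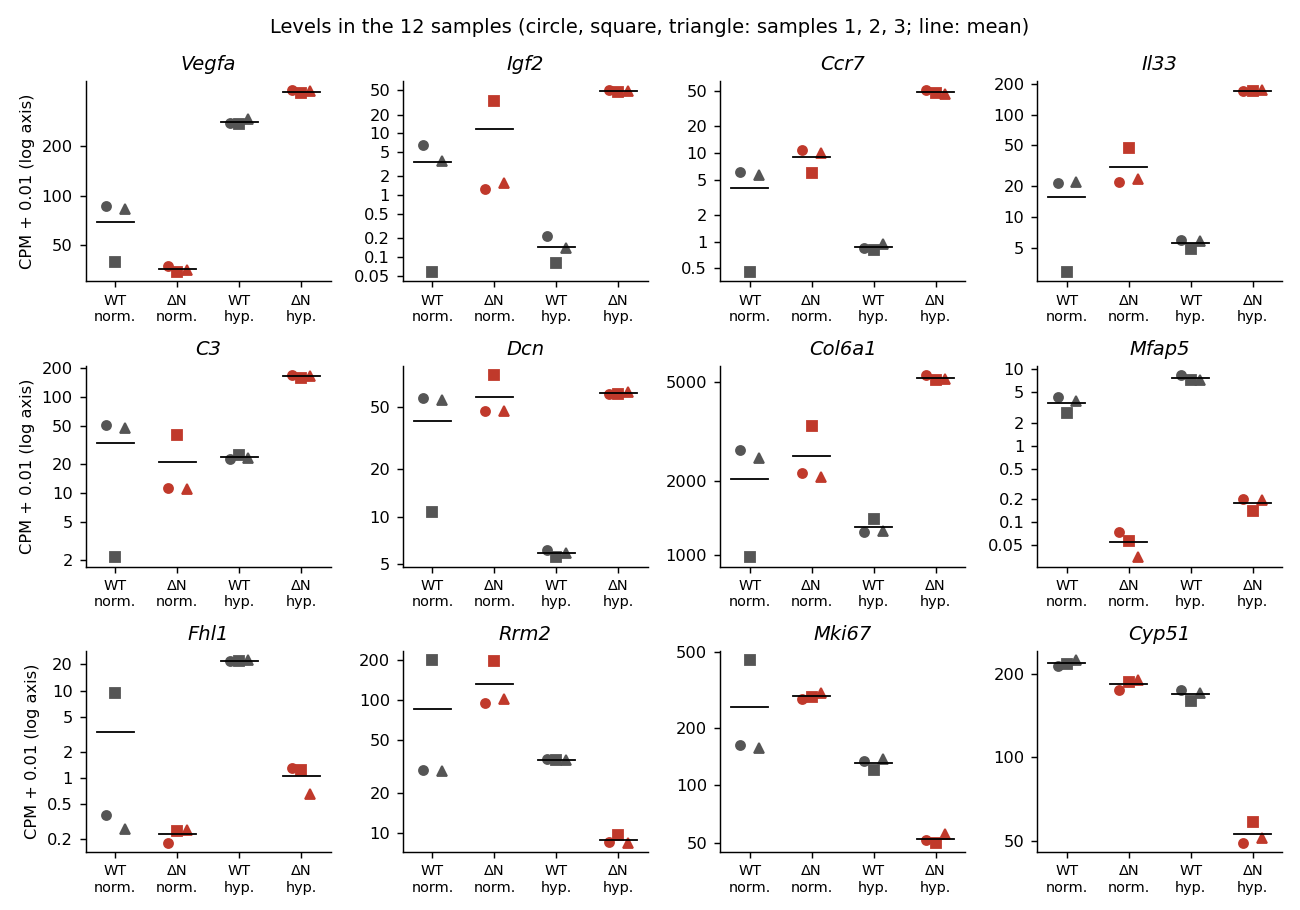
Levels of 12 genes (CPM + 0.01, log axis) in the wild type (WT, grey) and ΔN-VEGF (ΔN, red) samples in normoxia and hypoxia, with samples 1, 2 and 3 as circle, square and triangle and the mean as a line. In hypoxia the lines do not overlap for any of the 12, whereas in normoxia wild type sample 2 stands apart from samples 1 and 3 in every panel but those of Mfap5 and Cyp51.

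Genes of the cell cycle were the largest block that was lower in ΔN-VEGF. Of 50 tested DNA replication genes, 48 were lower and 1 higher at the adjusted p, against 29.1% lower over all genes, 22 (44%) were called lower against 5.74%, and the median log2 fold change was -0.94. Of 61 mitosis and spindle genes, 58 were lower and 1 higher at the adjusted p and 30 (49.2%) were called lower, with a median of -0.998. Of 36 homologous recombination and Fanconi anaemia genes, 27 were lower and 2 higher at the adjusted p and 17 were called lower (47.2%), with a median of -0.97. No member of these 3 lists was called higher. The libraries hold RNA of whole cultures, so fewer cells in cycle and less of these RNAs per cell cannot be told apart.

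Enzymes that make deoxynucleotides and the factors that load and run the replication fork were among the clearest. Rrm2, the regulated subunit of ribonucleotide reductase, stood at 36.2, 35.4 and 35.1 CPM in wild type and 8.49, 9.55 and 8.4 CPM in ΔN-VEGF (log2 fold change -2.02 ± 0.08 (SE, n = 3 per line), edgeR adjusted p = 1.4e-12). Tk1, thymidine kinase, went from 60.8, 66.1 and 55 to 16.8, 18.4 and 16.2 CPM (-1.83 ± 0.08, edgeR adjusted p = 7.9e-12). Cdc6, which loads the MCM helicase onto origins, went from 29.2, 27.9 and 29.5 to 8.3, 8.3 and 8.86 CPM (-1.77 ± 0.07, edgeR adjusted p = 6.5e-12). For each of the 3, the lines were separated by a wide gap. Helicase subunits were lower as well, as Mcm5 (85.4, 103 and 90.5 against 34.3, 34.5 and 32.6 CPM, -1.46 ± 0.07, edgeR adjusted p = 4.1e-11) and Mcm6 (-1.14 ± 0.06, edgeR adjusted p = 1.1e-10) show. Of the 9 tested genes named Mcm, 5 were called lower and 8 were lower at the adjusted p. Pclaf, which binds PCNA (43, 38.2 and 44.2 against 10.02, 10.5 and 10.7 CPM, -2.01 ± 0.08, edgeR adjusted p = 2.2e-12), and Hells, a chromatin remodeller of S phase (40.6, 33.9 and 42.9 against 8.96, 8.2 and 10.5 CPM, -2.1 ± 0.10, edgeR adjusted p = 3.5e-11), fell with them.

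Mitotic genes included Mki67, the Ki-67 proliferation antigen, at 135, 121 and 137 CPM in wild type and 51.9, 50.2 and 55.7 CPM in ΔN-VEGF (log2 fold change -1.32 ± 0.07 (SE, n = 3 per line), edgeR adjusted p = 5.1e-11). Foxm1, a transcription factor of late cell cycle genes, went from 92.9, 102 and 93.4 to 36.4, 37 and 35.2 CPM (-1.42 ± 0.06, edgeR adjusted p = 9.6e-12). Mybl2, which acts with it, went from 27.2, 29.98 and 26.8 to 6.29, 8.17 and 7.45 CPM (-1.94 ± 0.09, edgeR adjusted p = 3.1e-11). These again did not overlap between the lines. Kinesins that move chromosomes followed, with Kif15 (-1.64 ± 0.10, edgeR adjusted p = 5.2e-10) and Kif4 (-1.16 ± 0.07, edgeR adjusted p = 1e-09) lower, while Kif26a, a kinesin outside the mitotic set, was the 1 called higher of 32 kinesins (1.01 ± 0.38, edgeR adjusted p = 0.031, below 1 CPM in every hypoxia sample, and 0.60 without ΔN-VEGF sample 1 or 0.70 without wild type sample 3). Birc5, which encodes survivin of the chromosomal passenger complex, stood at 40.7, 41.7 and 39.6 against 18.4, 18.1 and 16.3 CPM (-1.21 ± 0.07, edgeR adjusted p = 2.7e-10). In the model of all 12 samples, Rrm2, Tk1, Cdc6, Mcm5, Mcm6, Foxm1, Mybl2 and Birc5 kept their fold but not the adjusted p, which ranged from 0.051 to 0.15 in edgeR.

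Recombination genes were mostly lower as well, 27 of 36 at the adjusted p and 2 higher. Rad54l, a DNA translocase of this pathway, stood at 14.6, 15 and 14.6 CPM in wild type and 4.76, 4.47 and 4.32 CPM in ΔN-VEGF (log2 fold change -1.71 ± 0.09 (SE, n = 3 per line), edgeR adjusted p = 9.7e-11), without overlap. The G1 regulators were more divided. Of 22 tested, 6 were called lower, 11 were lower and 7 higher at the adjusted p, with a median of -0.22 (-0.43 with library totals). Ccne1, the cyclin that starts S phase, went from 14.9, 17.3 and 15.8 to 3.73, 4.34 and 3.49 CPM (-2.06 ± 0.10, edgeR adjusted p = 6.2e-11), and the repressive E2F factors E2f8 (-1.53 ± 0.09, edgeR adjusted p = 4.3e-10) and E2f7 (-1.07 ± 0.06, edgeR adjusted p = 4.3e-10) were lower too. The inhibitors Cdkn1a and Cdkn1b were higher by 0.55 and 0.51, at the adjusted p but below 2-fold, and Ccnd1 was lower at -0.79.

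The promoters of these lists were read because their members moved together. RefSeq windows (GRCm38.p6, 250 bases before to 50 after the gene start, either strand searched) were at hand for 40 of the 50 replication genes and 51 of the 61 mitosis genes. The E2F-type octamers TTTGGCGC, TTTCGCGC, TTTCCCGC and TTTGCCGC, none of which contains the second motif, occurred in 15 of the 40 replication promoters (37.5%) and 4 of the 51 mitosis promoters (7.84%), against 2.6% of the 27025 genes with a window and 4.71% of the 9961 tested genes with one. The cell cycle homology region, TTTGAA, occurred in 35 of the 51 mitosis promoters (68.6%) and 5 of the 40 replication promoters (12.5%), against 20.2% and 14.3%. These shares cover all tested list members, called or not, so they describe the lists and not the line difference. Among promoters of genes called lower, 8.04% held an E2F-type octamer and 18.3% held TTTGAA. Among those of genes called higher, the shares were 1.65% and 15.7%. Only 72.0% of tested genes had a window, so the share over tested genes is incomplete. A match is a string in this window and not a bound site. The sequences below show the match in capitals, read along the gene's strand, for called genes named above. In the Mcm5 window and the upper Mcm6 window, an overlapping match on the other strand is not marked.
Cdc6 promoter, GRCm38 chr11:98908003-98908030, plus strand: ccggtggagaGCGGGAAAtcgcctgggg
Mcm5 promoter, GRCm38 chr8:75109346-75109373, plus strand: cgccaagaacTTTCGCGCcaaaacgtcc
Mcm6 promoter, GRCm38 chr1:128359798-128359825, minus strand: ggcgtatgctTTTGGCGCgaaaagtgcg
Mcm6 promoter, GRCm38 chr1:128359735-128359762, minus strand: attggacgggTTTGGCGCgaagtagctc
Mki67 promoter, GRCm38 chr7:135716480-135716505, minus strand: agcgccagaaTTTGAAccgccgtttt
Mki67 promoter, GRCm38 chr7:135716462-135716487, minus strand: gccgttttggTTTGAAtcgggcgggc
Kif4 promoter, GRCm38 chrX:100626074-100626099, plus strand: ctgggatcaaTTTGAAacttggcggt

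The cell cycle blocks did not lie in the same order in normoxia. The median of the replication genes, each centred on its mean log2 level over the 12 samples, was 0.01, -0.03 and -0.01 in the wild type hypoxia samples and -1.04, -0.94 and -0.95 in the ΔN-VEGF hypoxia samples. In normoxia it was -0.38, 1.32 and -0.41 in wild type and 0.55, 1.27 and 0.62 in ΔN-VEGF. Wild type samples 1 and 3 therefore stood below ΔN-VEGF in normoxia, the reverse of hypoxia, while wild type sample 2 stood at the top. In edgeR, no replication gene and no mitosis gene passed the interaction test over the 12 samples, though 30 of 50 and 21 of 61 had an unadjusted p below 0.05 and 9 and 3 passed in DESeq2. As many as 50 of 50 and 61 of 61 passed in edgeR when both normoxia samples numbered 2 were left out, a choice made after the data were seen. That fit called the interaction for 2501 genes, against 230 over the 12 samples. Of the 36 recombination and Fanconi anaemia genes, 4 passed in edgeR over the 12 samples and 13 in DESeq2. Without both samples numbered 2, 30 of them passed in edgeR.

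**Figure D3:**
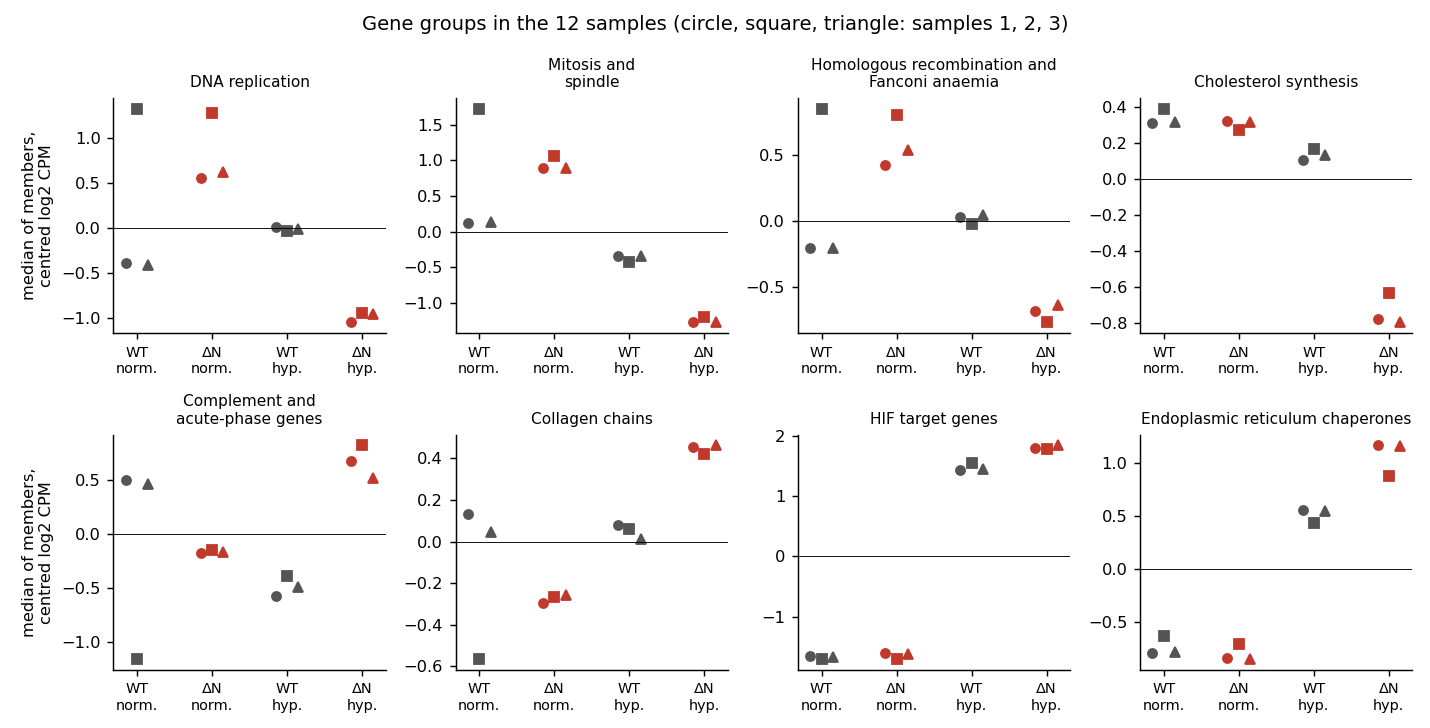
Median over the tested members of 8 gene groups in each of the 12 samples (log2 CPM, each gene centred on its mean over the samples), with wild type (WT) in grey, ΔN-VEGF (ΔN) in red and samples 1, 2 and 3 as circle, square and triangle. In hypoxia ΔN-VEGF lies below wild type for the first 4 groups and above it for the last 4, and wild type normoxia sample 2 lies away from samples 1 and 3 in the cell cycle, complement and collagen panels.

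Cholesterol synthesis was lower along nearly its whole length. Of 24 tested genes, 23 were lower at the adjusted p and none higher, 8 (33.3%) were called, and the median was -0.90. Cyp51, the sterol demethylase, stood at 174, 160.4 and 171 CPM in wild type and 49.3, 58.3 and 51.4 CPM in ΔN-VEGF (log2 fold change -1.68 ± 0.07 (SE, n = 3 per line), edgeR adjusted p = 3.7e-12). Idi1, which isomerises the isoprenoid building block, went from 71.8, 54.6 and 70.4 to 18.7, 22 and 18.4 CPM (-1.75 ± 0.10, edgeR adjusted p = 2.1e-10). Msmo1, a sterol oxidase, went from 124, 122 and 124 to 50.3, 57.4 and 55.3 CPM (-1.19 ± 0.06, edgeR adjusted p = 8e-11). The lines did not overlap in these 3 genes. Srebf2, the master regulator of the pathway, was lower at -0.45, under 2-fold. Ebp, at -0.17, was the 1 member that did not pass.

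In normoxia the sterol genes lay close together, as Cyp51 shows at 214, 218 and 224 CPM in wild type and 175, 187 and 189.9 CPM in ΔN-VEGF. The interaction of line and oxygen passed for 14 of the 24 genes, against 3.36% of all genes tested for it, Cyp51 (log2 -1.42 ± 0.12, edgeR adjusted p = 0.00058), Idi1 (-1.63 ± 0.28, edgeR adjusted p = 0.014) and Msmo1 (-1.12 ± 0.15, edgeR adjusted p = 0.0048) among them. It passed for 16 in DESeq2 and for 22 in edgeR without both normoxia samples numbered 2. Sample 2 of wild type did not stand apart here, its list median being 0.39 beside 0.31 in sample 1.

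Fatty acid and lipid droplet genes were mixed, with 11 of 42 higher and 17 lower at the adjusted p (median -0.27, or -0.48 with library totals). Elovl6, which lengthens fatty acids, stood at 30.9, 27.6 and 30.8 CPM in wild type and 7.14, 7.62 and 7.94 CPM in ΔN-VEGF (log2 fold change -1.99 ± 0.08 (SE, n = 3 per line), edgeR adjusted p = 4.9e-12). Dgat2, which makes triglycerides, was the 1 called higher (27.3, 30.3 and 29.5 against 70.7, 71.3 and 71.2 CPM, 1.28 ± 0.06, edgeR adjusted p = 3.6e-11). Both passed the interaction test (edgeR adjusted p = 0.0048 for Elovl6 and 0.0089 for Dgat2).

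Complement and acute-phase genes made the group with the highest median. Of 16 tested, 11 (68.8%) were called higher and 1 lower, with a median of 1.81. A2m, a protease trap of plasma, stood at 9.99, 10.7 and 10.6 CPM in wild type and 94.6, 97.1 and 91.1 CPM in ΔN-VEGF (log2 fold change 3.17 ± 0.07 (SE, n = 3 per line), edgeR adjusted p = 1.3e-15). C1s1, a protease that starts the classical pathway, went from 20.6, 19.5 and 22.5 to 172, 174 and 177 CPM (3.05 ± 0.07, edgeR adjusted p = 1.3e-15). C3, the central complement component, went from 22.7, 25.1 and 22.9 to 167, 156 and 164 CPM (2.78 ± 0.06, edgeR adjusted p = 3.3e-15). Each of these 3 was far apart between the lines. C1s1 and its near copy C1s2 (3.27) share sequence, so the division of reads between them is uncertain. The acute-phase genes Saa3 (4.22), Lcn2 (2.17) and Hp (1.99) and the pattern receptor Ptx3 (1.64) were called higher, and Cd59a, which blocks the membrane attack complex, was the 1 called lower (3.11, 2.91 and 3.06 against 0.971, 1.51 and 1.59 CPM, -1.16 ± 0.17, edgeR adjusted p = 2.5e-05), at -0.97 without ΔN-VEGF sample 1.

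The normoxia levels of this group varied with the sample. C3 stood there at 51.1, 2.14 and 47.2 CPM in wild type and 11.4, 39.99 and 11.1 CPM in ΔN-VEGF, so samples 1 and 3 of wild type were above those of ΔN-VEGF. The list median in normoxia was -0.34 over the 6 samples and -1.05 without samples 2. In edgeR, no member passed the interaction test over 12 samples, 10 had an unadjusted p below 0.05, and 8 passed in DESeq2. Without both normoxia samples numbered 2, 12 passed in edgeR.

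Chemokine ligands went both ways, with 4 of 13 called higher and 2 lower (30.8% and 15.4%, median -0.07, or -0.28 with library totals). Ccl8, a monocyte attractant, stood at 0.752, 0.719 and 0.509 CPM in wild type and 22.9, 26.2 and 24.2 CPM in ΔN-VEGF (log2 fold change 5.21 ± 0.13 (SE, n = 3 per line), edgeR adjusted p = 8.9e-15). Ccl5, which draws T cells, went from 0.934, 1.1 and 1.1 to 5.54, 5.82 and 5.79 CPM (2.45 ± 0.14, edgeR adjusted p = 3e-10). Cxcl10, an interferon-induced attractant, had 62 counts in the wild type samples together and 5 in ΔN-VEGF (ratio 11.1, 95% counting interval 4.50 to 35.3), and Ccl9 stood at 1.4, 1.64 and 1.38 against 0.313, 0.225 and 0.153 CPM (-2.66 ± 0.28, edgeR adjusted p = 5.1e-07). Of 4 tested chemokine receptors, 3 were called higher: Ccr7 above, and Ccr10 (1.73 ± 0.33, edgeR adjusted p = 0.0003) and Cxcr1 (1.56 ± 0.31, edgeR adjusted p = 0.00041) both below 2 CPM in every hypoxia sample. In normoxia, Ccl8 stood at 1.67, 1.37 and 1.89 CPM in wild type and 0.689, 62 and 0.735 CPM in ΔN-VEGF.

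Cytokine genes outside the chemokines included Osmr, the oncostatin M receptor subunit, at 123, 115 and 129 CPM in wild type and 379, 363 and 388 CPM in ΔN-VEGF (log2 fold change 1.61 ± 0.06 (SE, n = 3 per line), edgeR adjusted p = 1e-12). Its signalling partner Il6st, or gp130, went from 355, 329.9 and 356 to 903, 869 and 931 CPM (1.37 ± 0.06, edgeR adjusted p = 5.3e-12). Clcf1, a ligand of the same receptor family, went the other way, from 31.9, 33.8 and 30.5 to 11.8, 12.2 and 10.9 CPM (-1.47 ± 0.08, edgeR adjusted p = 8.5e-11). Il15, a lymphocyte growth factor, was lower as well (2.0, 2.5 and 1.58 against 0.47, 0.482 and 0.398 CPM, -2.15 ± 0.24, edgeR adjusted p = 1.2e-06). In all, 4 of 23 were called higher and 3 lower (17.4% and 13%).

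Interferon-stimulated genes parted into members that were higher and members that were lower. Of 38 tested, 6 were called higher and 5 lower, with a median of 0.33 (0.12 with library totals). Ifitm3, which blocks virus entry, stood at 64.9, 76.5 and 64 CPM in wild type and 185, 183 and 186 CPM in ΔN-VEGF (log2 fold change 1.42 ± 0.07 (SE, n = 3 per line), edgeR adjusted p = 3e-11). Ifi44 went from 0.545, 0.274 and 0.484 to 3.63, 2.8 and 4.2 CPM (2.97 ± 0.23, edgeR adjusted p = 1.4e-08) and Bst2, or tetherin, from 3.22, 2.91 and 2.62 to 7.05, 7.17 and 6.28 CPM (1.22 ± 0.12, edgeR adjusted p = 1.7e-07). Genes of the RNA-binding IFIT family were lower, with Ifit2 at 14.8, 12 and 15.3 against 5.7, 5.79 and 6.34 CPM (-1.25 ± 0.10, edgeR adjusted p = 2.7e-08), Ifit3 at -1.2 and Ifit1 at -1.16, all called. Isg15 (-0.21) did not pass. The called shares were 15.8% higher and 13.2% lower, against 4.10% and 5.74% of all genes.

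In MHC class I presentation, 2 of 20 genes were called, both of them class I heavy chains. H2-K1 stood at 3.58, 4.14 and 3.95 CPM in wild type and 32.7, 32.3 and 32.1 CPM in ΔN-VEGF (log2 fold change 3.05 ± 0.08 (SE, n = 3 per line), edgeR adjusted p = 3e-14), and H2-T23 went from 3.14, 3.39 and 3.46 to 8.49, 9.23 and 9.99 CPM (1.46 ± 0.11, edgeR adjusted p = 6.2e-09). The lines did not overlap for H2-K1 in normoxia either, at 6.5, 3.16 and 6.74 against 22.5, 26.6 and 21.1 CPM. These genes belong to a family of near-identical copies, so reads may be divided unevenly among them. B2m, the shared light chain, was higher by 0.71 and H2-D1 by 0.63, under 2-fold.

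Collagen chains were more often higher than lower. Of 28 tested chains, 9 (32.1%) were called higher and 2 lower, with a median of 0.57 (0.36 with library totals). Col6a1, of the beaded filaments around cells, stood at 1238, 1401 and 1258 CPM in wild type and 5340.1, 5109 and 5137 CPM in ΔN-VEGF (log2 fold change 1.99 ± 0.06 (SE, n = 3 per line), edgeR adjusted p = 2.1e-13). Col3a1, of fibrils, went from 348, 348 and 341 to 1044, 1025 and 1011 CPM (1.56 ± 0.05, edgeR adjusted p = 4.8e-13), and Col1a1, the main fibrillar chain, from 889, 1103 and 919 to 3086, 2861 and 2753 CPM (1.57 ± 0.08, edgeR adjusted p = 4.6e-11). These rank among the most abundant transcripts that were called. The basement membrane chains Col4a1 (1.27) and Col4a2 (1.13) and the fibril-associated Col12a1 (53, 49.9 and 55.3 against 141, 142 and 146 CPM, 1.43 ± 0.06, edgeR adjusted p = 4.7e-12) were called too. The 2 chains called lower, Col22a1 (-2.7 ± 0.39, edgeR adjusted p = 1.9e-05) and Col9a3 (-1.77 ± 0.34, edgeR adjusted p = 0.0003), were below 1 CPM in every hypoxia sample.

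Col3a1 stood at 2243, 336 and 2178 CPM in wild type and 378, 397 and 370.1 CPM in ΔN-VEGF in normoxia, so that wild type samples 1 and 3 were above every ΔN-VEGF sample and sample 2 was below them, as in hypoxia. Its interaction passed (log2 3.62 ± 0.70, edgeR adjusted p = 0.023). In all, 5 of the 28 chains passed that test in edgeR, against 3.36% of all genes, while 16 passed in DESeq2 and 23 in edgeR without both normoxia samples numbered 2. None of the 21 collagen-modifying enzymes was called by edgeR or DESeq2, though 16 had an unadjusted p below 0.05 in edgeR, and 13 were higher and 2 lower at the adjusted p (median 0.35, or 0.14 with library totals).

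Small proteoglycans and matrix glycoproteins held some of the widest rises, with 10 of 30 called higher (33.3%) and 2 lower. Fmod, fibromodulin, which binds collagen fibrils, stood at 0.0259, 0.0342 and 0.153 CPM in wild type and 8.42, 8.59 and 7.97 CPM in ΔN-VEGF (log2 fold change 6.72 ± 0.25 (SE, n = 3 per line), edgeR adjusted p = 1.3e-12). Dcn, decorin, of the same leucine-rich family, went from 6.12, 5.51 and 5.91 to 60.5, 60.4 and 61.7 CPM (3.37 ± 0.07, edgeR adjusted p = 1.4e-15). Emilin1, an elastic fibre glycoprotein, went from 114, 131 and 118 to 409, 362 and 375 CPM (1.65 ± 0.07, edgeR adjusted p = 3.6e-12). Aspn (4.27), Mfap4 (4.83), Postn (3.75) and Prelp (2.08) were called higher with them. Mfap5, a microfibril protein, was the widest fall of the list at 8.28, 7.26 and 7.28 against 0.188, 0.129 and 0.184 CPM (log2 fold change -5.49 ± 0.20 (SE, n = 3 per line), edgeR adjusted p = 1.2e-12), and it was also lower in ΔN-VEGF in normoxia (4.33, 2.62 and 3.83 against 0.0646, 0.0474 and 0.0245 CPM). Tnxb, a tenascin, was called lower (15, 17 and 14.8 against 4.76, 4.02 and 4.35 CPM, -1.84 ± 0.10, edgeR adjusted p = 1.5e-10). The interactions of Dcn (edgeR adjusted p = 0.041), Emilin1 (edgeR adjusted p = 0.029) and Tnxb (edgeR adjusted p = 0.0039) passed, and that of Mfap5 did not (edgeR adjusted p = 0.52).

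Other matrix genes moved in smaller numbers. Lama4, a laminin chain, stood at 1.95, 2.6 and 1.73 CPM in wild type and 16.3, 15 and 15.8 CPM in ΔN-VEGF (2.92 ± 0.12, edgeR adjusted p = 5e-12). Mmp9, a gelatinase, went from 3.68, 3.87 and 3.44 to 32.6, 32 and 30.3 CPM (3.11 ± 0.08, edgeR adjusted p = 3e-14), and Reck, a membrane-bound inhibitor of such proteases, from 11.5, 10.9 and 11.5 to 25.1, 24.9 and 24.9 CPM (1.13 ± 0.07, edgeR adjusted p = 8.3e-10), the latter at 0.92 with library totals. Of 26 matrix proteases and inhibitors, 4 were called higher and none lower. Among 20 integrin subunits, the collagen-binding Itga11 was higher (3.32 ± 0.31, edgeR adjusted p = 1.3e-07) and Itga3 (74.1, 82.8 and 73.7 against 32.1, 35 and 31.6 CPM, -1.23 ± 0.07, edgeR adjusted p = 1.8e-10) and Itgb3 (8.85, 8.63 and 8.43 against 3.32, 2.73 and 3.95 CPM, -1.38 ± 0.12, edgeR adjusted p = 5e-08) were lower, 3 and 2 in all.

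**Figure D4:**
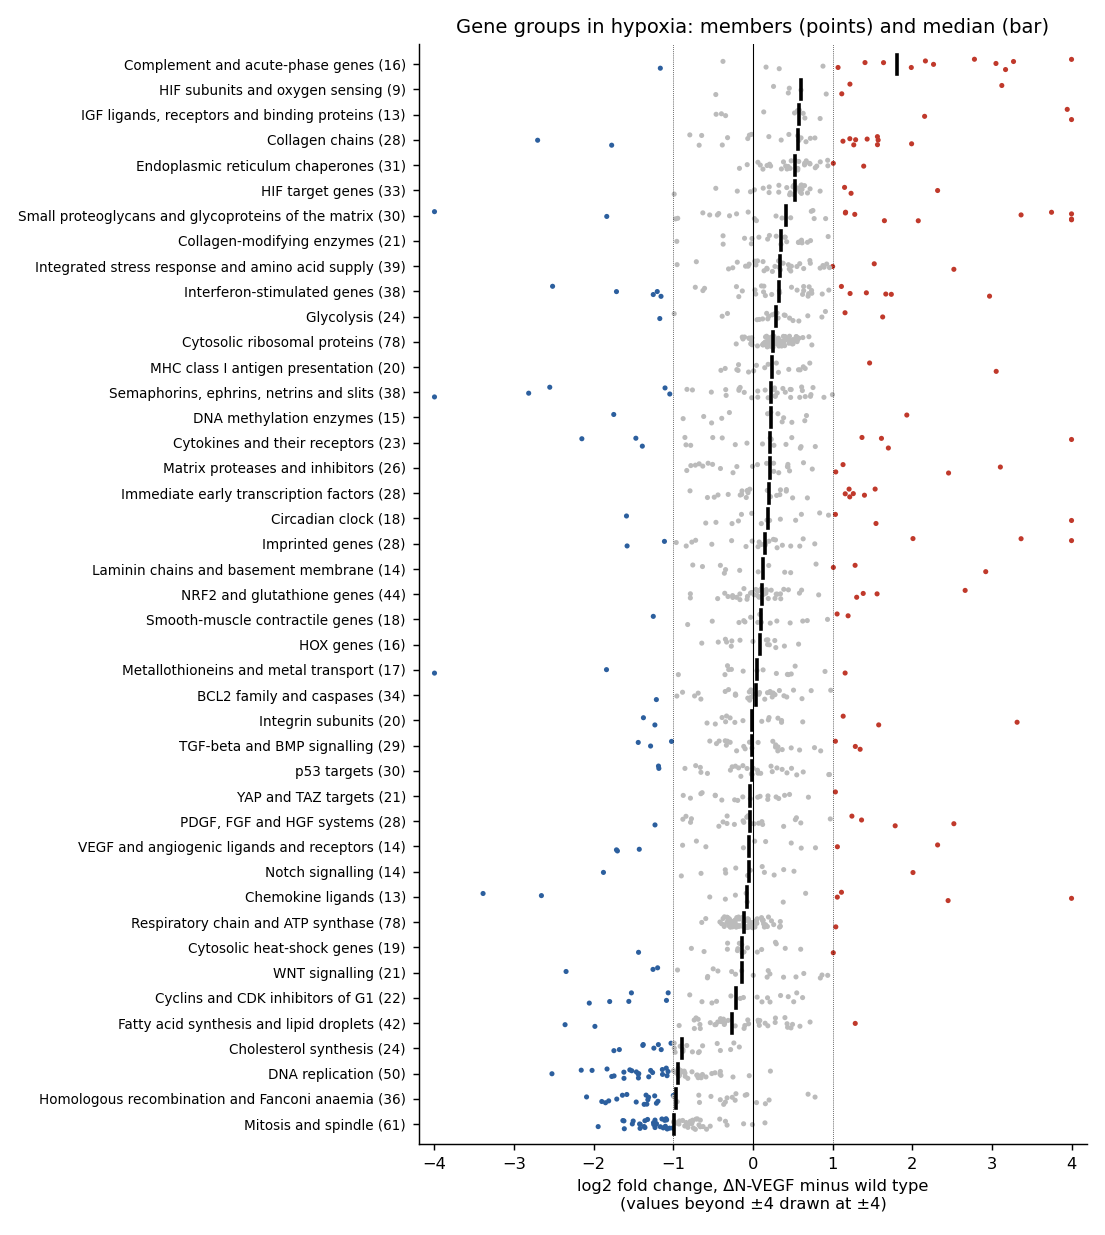
Log2 fold change of ΔN-VEGF over wild type in hypoxia for the tested members of each gene group (points, red when called higher and blue when called lower), with the group median as a black bar and the number of tested members in brackets. Dotted lines mark 2-fold, and values beyond ±4 are drawn at the edge. Complement and acute-phase genes have the highest median of the groups drawn (1.81), and the 3 cell cycle lists and cholesterol synthesis have the lowest (-0.998 to -0.90).

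Growth factor, imprinted and germline genes held several of the widest single differences. Of 13 genes of the IGF system, 3 were called higher and none lower. Beside Igf2, Igfbp4, which binds IGFs in the medium, stood at 62.1, 63.5 and 62.1 CPM in wild type and 293, 265 and 282 CPM in ΔN-VEGF (log2 fold change 2.15 ± 0.06 (SE, n = 3 per line), edgeR adjusted p = 2.8e-14), a call that the model of all 12 samples did not keep (edgeR adjusted p = 0.06). Pappa2, a protease that cleaves IGF-binding proteins, went from 0.519, 0.377 and 0.433 to 7.67, 5.98 and 7.32 CPM (3.95 ± 0.18, edgeR adjusted p = 2e-11). Dlk1, an imprinted Notch-like ligand of immature mesenchymal cells, went from 1326, 1582 and 1371 to 6093, 5796 and 5433 CPM (2.01 ± 0.07, edgeR adjusted p = 1.1e-12), and its normoxia values were 814, 672 and 743 against 1122, 2944 and 992 CPM, again without overlap. Igf2 and Dlk1 belong to a list of imprinted genes of which 3 of 28 were called higher and 2 lower (10.7% and 7.14%), with a median of 0.15 that turned to -0.06 with library totals. Sfmbt2 (12, 12.2 and 13.2 against 5.14, 6.24 and 6.01 CPM, -1.11 ± 0.10, edgeR adjusted p = 4.6e-08) and Slc22a18 (-1.58 ± 0.42, edgeR adjusted p = 0.0039) were the lower ones. H19, the neighbour of Igf2, had too few counts to be tested.

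The homeobox gene Rhox5, on the X chromosome and known for regulation by DNA methylation, stood at 4.02, 3.63 and 3.95 CPM in wild type and 56.8, 63.3 and 63.4 CPM in ΔN-VEGF (log2 fold change 3.97 ± 0.08 (SE, n = 3 per line), edgeR adjusted p = 1.3e-15). It held the same order in normoxia, at 4.11, 4.29 and 4.37 against 84.1, 79.8 and 87.4 CPM, and the interaction did not pass (edgeR adjusted p = 0.18). Rhox2h, the other tested gene of the family, which has close copies, was called lower, with a mean of 0.72 CPM in wild type and 0 CPM in ΔN-VEGF in hypoxia. It was named after its values were seen. Xlr3a, an X-linked germline gene of a family of close copies, had 45 counts in the wild type hypoxia samples and 0 in ΔN-VEGF, at least 13.4-fold lower. Of 15 DNA methylation enzymes, Dnmt3l, a cofactor of the de novo methyltransferases, was called higher (2.26, 2.05 and 2.11 against 8.67, 7.75 and 8.31 CPM, 1.93 ± 0.11, edgeR adjusted p = 4.2e-10) and Uhrf1, which brings Dnmt1 to replicating DNA, lower (98.2, 103 and 99.6 against 28.6, 32.1 and 29.4 CPM, -1.75 ± 0.06, edgeR adjusted p = 1e-12). In the model of all 12 samples Uhrf1 did not pass (edgeR adjusted p = 0.055). Dnmt1 was lower at -0.88, under 2-fold.

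Signalling families gave scattered calls. Axin2, a feedback target of WNT signalling, stood at 1.56, 1.85 and 1.3 CPM in wild type and 0.376, 0.354 and 0.184 CPM in ΔN-VEGF (log2 fold change -2.35 ± 0.28 (SE, n = 3 per line), edgeR adjusted p = 2e-06) and at 2.28, 1.56 and 1.98 against 0.151, 0.26 and 0.0735 CPM in normoxia. The ligands Wnt10b (-1.2 ± 0.24, edgeR adjusted p = 0.00041) and Wnt2b (-1.26 ± 0.41, edgeR adjusted p = 0.015) were the other called members of 21, none of which was called higher. Wnt2b stayed below 1 CPM and came to -0.89 without ΔN-VEGF sample 2. Notch4, a Notch receptor, went from 9.94, 11.8 and 9.53 to 2.72, 3.09 and 2.7 CPM (-1.88 ± 0.12, edgeR adjusted p = 8.6e-10). Among TGF-beta and BMP genes (3 of 29 called higher and 3 lower, 10.3% each, against 4.10% and 5.74% of all genes), the activin antagonist Fstl3 was higher (30.3, 37.4 and 33.1 against 88.6, 78.9 and 79.1 CPM, 1.28 ± 0.08, edgeR adjusted p = 4.5e-10). The activin subunit Inhba (46.1, 34.1 and 44.6 against 16.6, 18.4 and 16.6 CPM, -1.29 ± 0.10, edgeR adjusted p = 8.6e-09) was lower. Erbb3, a neuregulin receptor, stood at 13.5, 13 and 13.4 CPM in wild type and 46.5, 44.3 and 47.7 CPM in ΔN-VEGF (1.79 ± 0.07, edgeR adjusted p = 1.7e-12).

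Smaller numbers were called in related lists, with 4 of 28 PDGF, FGF and HGF genes higher and 1 lower, 1 of 21 YAP and TAZ targets higher, and 2 of 18 smooth-muscle contractile genes higher and 1 lower. The shares higher were 14.3%, 4.76% and 11.1%, against 4.10% of all genes, and the shares lower were 3.57% for the first list and 5.56% for the last, against 5.74%.

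Of 38 axon guidance genes, edgeR called 5 lower (13.2%, against 5.74% of all genes) and none higher, and DESeq2 called 6 in all, although 16 were higher at the adjusted p and the median was 0.23 (0.02 with library totals). Beside Sema3c, Sema3a, a repulsive cue that binds neuropilin, went from 76.1, 66.2 and 82.4 to 35, 36.3 and 33.8 CPM (-1.1 ± 0.07, edgeR adjusted p = 2.2e-09), and Plxna2, a semaphorin receptor, from 48.3, 46.1 and 49.2 to 24.4, 24.5 and 21 CPM (-1.05 ± 0.07, edgeR adjusted p = 2.2e-09, or -0.97 without ΔN-VEGF sample 3). Sema4a (-2.55) and the netrin receptor Unc5a (-2.82) were the others.

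Stress programmes leaned higher with few 2-fold calls. Of 31 endoplasmic reticulum chaperone genes, 24 were higher and 1 lower at the adjusted p, 2 were called, and the median was 0.53 (0.32 with library totals). Dnajb9, a cochaperone, stood at 46.1, 35.3 and 44.5 CPM in wild type and 113, 97.6 and 122 CPM in ΔN-VEGF (log2 fold change 1.39 ± 0.09 (SE, n = 3 per line), edgeR adjusted p = 1.9e-09), and Herpud1, of the degradation machinery, went from 325, 329 and 337 to 682, 645 and 677 CPM (1.01 ± 0.05, edgeR adjusted p = 1.1e-10), a value that came to 0.80 with library totals and to just under 1 (0.99) without ΔN-VEGF sample 1. Hspa5, the main chaperone of the compartment, was higher by 0.56. Of 39 genes of the integrated stress response and amino acid supply, 26 were higher and 4 lower (median 0.34, or 0.13 with library totals), with Atf5, a stress-induced transcription factor (145, 166 and 153 against 463, 421 and 456 CPM, 1.52 ± 0.06, edgeR adjusted p = 5.4e-12), and Fgf21, a secreted stress hormone (0.726, 0.616 and 0.815 against 4.2, 3.92 and 4.54 CPM, 2.52 ± 0.17, edgeR adjusted p = 1.6e-09), furthest apart. The interaction passed for 14 of these 39 and 6 of the 31 chaperone genes in edgeR, against 3.36% of all genes, for 18 and 16 in DESeq2, and for 28 and 25 in edgeR without both normoxia samples numbered 2. For Atf5 it was log2 2.0 ± 0.21, edgeR adjusted p = 0.002.

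Oxidative stress and metal genes included Hmox1, heme oxygenase, at 384, 402 and 389 CPM in wild type and 1060.3, 999 and 1026 CPM in ΔN-VEGF (log2 fold change 1.38 ± 0.05 (SE, n = 3 per line), edgeR adjusted p = 2.7e-12). Mt2, a metallothionein, went from 61.9, 67.3 and 55.6 to 139.6, 138 and 136 CPM (1.16 ± 0.07, edgeR adjusted p = 3e-10), or 0.94 with library totals. Tfrc, the transferrin receptor, went the other way, from 102, 81.2 and 102 to 27.6, 24.3 and 28.3 CPM (-1.84 ± 0.09, edgeR adjusted p = 3.1e-11), but did not pass in the model of all 12 samples (edgeR adjusted p = 0.091). Heph, a copper-dependent ferroxidase, was the widest fall of its list, at 3.58, 3.35 and 2.73 against 0.188, 0.225 and 0.153 CPM (-4.07 ± 0.25, edgeR adjusted p = 7e-10), and it was lower in ΔN-VEGF in normoxia too (7.37, 5.36 and 7.53 against 0.366, 0.308 and 0.49 CPM). Over the list of NRF2 and glutathione genes, 4 of 44 (9.09%) were called higher and none lower, with a median of 0.12 that turned to -0.10 with library totals. Cytosolic heat-shock genes gave 1 call each way, Cryab lower (120.3, 132 and 115 against 44.3, 47.7 and 44.3 CPM, -1.44 ± 0.06, edgeR adjusted p = 1.5e-11) and Hspa1b, a near copy of Hspa1a, higher (1.01 ± 0.14, edgeR adjusted p = 1.4e-05, 0.79 with library totals, 0.98 without wild type sample 1 and 0.95 without ΔN-VEGF sample 1).

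Immediate early factors had 6 of 28 (21.4%) called higher and none lower, with a median of 0.20 (-0.01 with library totals). Egr1 stood at 47.8, 49.5 and 48 CPM in wild type and 139, 148 and 136 CPM in ΔN-VEGF (log2 fold change 1.53 ± 0.06 (SE, n = 3 per line), edgeR adjusted p = 1.7e-12), Fos at 10.4, 11.6 and 10.8 against 29.8, 29.6 and 27.6 CPM (1.4 ± 0.07, edgeR adjusted p = 1.4e-10), and Zfp36, which destabilises messenger RNAs, at 35.7, 37.5 and 34 against 83.6, 80.3 and 76.2 CPM (1.16 ± 0.06, edgeR adjusted p = 1.6e-10, or 0.95 with library totals). Of 18 clock genes, Per1 (98, 108 and 97.1 against 221, 202 and 201 CPM, 1.04 ± 0.06, edgeR adjusted p = 4.8e-10, 0.82 with library totals and 0.99 without ΔN-VEGF sample 1), Hlf (1.54 ± 0.08, edgeR adjusted p = 1.5e-10) and Rora (4.25 ± 0.38, edgeR adjusted p = 7.2e-08) were higher. Rora stayed below 3 CPM in every hypoxia sample. The list median was 0.19, or -0.02 with library totals.

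Ribosomal and respiratory genes differed little. Of 78 cytosolic ribosomal protein genes, 64 were higher and 1 lower at the adjusted p, none was called by edgeR or DESeq2, and the median of 0.25 came to 0.04 with library totals. Of 78 respiratory chain and ATP synthase genes, 30 were lower and 8 higher (median -0.12, or -0.33 with library totals), and the 1 called was Cox6a2, a muscle isoform (3.35, 3.29 and 3.62 against 7.73, 6.37 and 7.14 CPM, 1.04 ± 0.11, edgeR adjusted p = 7.2e-07), which came to 0.83 with library totals and 0.97 without ΔN-VEGF sample 1. None of the 16 HOX genes was called by edgeR or DESeq2, though 9 had an unadjusted p below 0.05 in edgeR. Of 30 p53 targets, Mdm2, the ligase that degrades p53 (304, 261 and 303 against 131, 121 and 133 CPM, -1.18 ± 0.07, edgeR adjusted p = 2.1e-10), and Plk3 (-1.19 ± 0.09, edgeR adjusted p = 9.6e-09) were called lower and none higher. Of 34 BCL2 family and caspase genes, Birc5 alone was called.

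Among families defined by symbol, genes of the histone clusters had 6 of 21 called higher (28.6%) and none lower. These counts cover only the histone transcripts that the library preparation captured, a part that was not measured. Hist1h2bc, an H2B gene with close copies, stood at 14.2, 15 and 13.8 against 30.9, 29.6 and 31.6 CPM (1.09 ± 0.07, edgeR adjusted p = 1.1e-09, or 0.88 with library totals). Protocadherins had 7 of 40 called higher and none lower, with a median of 0.19 that turned to -0.02 with library totals. Pcdh10, of their non-clustered branch, was among them (0.519, 0.582 and 0.688 against 5.26, 5.21 and 5.7 CPM, 3.16 ± 0.16, edgeR adjusted p = 8.9e-11). Solute carriers had 14 of 213 called higher and 9 lower (6.57% and 4.23%), near the shares of 4.10% and 5.74% over all genes. Slc43a2, an amino acid transporter, stood at 0.96, 1.37 and 1.04 against 8.33, 8.68 and 7.29 CPM (2.86 ± 0.15, edgeR adjusted p = 7.5e-11) and Slc16a6, a monocarboxylate transporter relative, at 7.42, 7.7 and 8.15 against 0.752, 0.707 and 0.858 CPM (-3.33 ± 0.14, edgeR adjusted p = 8.6e-12). Of 18 cytochromes P450 with a symbol of number, letter and number, Cyp51 not among them, 3 were called higher and 1 lower (16.7% and 5.56%), and the retinoic acid hydroxylase Cyp26b1 was higher (79.8, 88.5 and 83.1 against 303, 302 and 302 CPM, 1.84 ± 0.06, edgeR adjusted p = 1.5e-13). Of 13 aldehyde dehydrogenases, 2 were called higher and 3 lower (15.4% and 23.1%). Aldh1l2, of mitochondrial folate metabolism, was higher (409, 378 and 419.8 against 1017, 882 and 1037 CPM, 1.27 ± 0.07, edgeR adjusted p = 1.2e-10). Aldh2, which clears acetaldehyde, was lower (142, 163 and 143 against 71, 75.4 and 68.2 CPM, -1.07 ± 0.07, edgeR adjusted p = 7.4e-10, or just short of 2-fold at -0.999 without wild type sample 2). Zinc finger genes had 4 of 307 called higher and 11 lower (1.3% and 3.58%).

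Over the chromosomes, the share of genes called higher ran from 1.73% to 7.02% and the share called lower from 3.23% to 7.94%, against 4.10% and 5.74% of all genes. Chromosome 7, which carries Igf2, held 75 genes called higher and 43 lower of 1093 tested (6.86% and 3.93%), and chromosome 12, which carries Dlk1, held 37 and 17 of 527 (7.02% and 3.23%). These counts were not tested. Long intergenic noncoding genes had 24 called higher and 59 lower of 398 (6.03% and 14.8%). Antisense genes also had raised shares, with 27 and 33 of 304 (8.88% and 10.9%). Protein-coding genes had 465 and 638 of 12017 (3.87% and 5.31%).

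The labelled cell type was checked against marker lists. Col1a1, Col1a2, Fn1 and Vim were the abundant fibroblast genes in both lines, Vim at 13923, 14897 and 13682 CPM in wild type and 17884, 17419.6 and 16534 CPM in ΔN-VEGF, and of 11 tested fibroblast markers 1 was called (Col1a1). Of the epithelial list, Epcam was at 0 counts in all 6 hypoxia samples and Krt19 (7.6, 7.84 and 6.88 against 0.689, 0.772 and 0.674 CPM, -3.38 ± 0.15, edgeR adjusted p = 1.1e-11), Krt14 (9.05, 9.45 and 7.41 against 2.91, 2.67 and 2.48 CPM, -1.69 ± 0.13, edgeR adjusted p = 7.2e-09) and Krt8 (36 against 3 counts, ratio 10.7, 95% counting interval 3.39 to 54.4) were lower in ΔN-VEGF. The summed level of that list was 17.6, 18.3 and 15.6 CPM in wild type and 4.04, 4.02 and 3.68 CPM in ΔN-VEGF. Cdh5, an endothelial cadherin, went from 5.42, 7.29 and 5.37 to 22.8, 19.4 and 24.4 CPM (1.89 ± 0.11, edgeR adjusted p = 5.3e-10), whereas Tie1 was lower, and the summed endothelial level was 8.8, 10.5 and 8.2 against 25.1, 21.3 and 26.3 CPM. The summed haematopoietic level was 36.6, 36.6 and 36.7 against 59.6, 55.5 and 57.4 CPM, with Csf1r, also a growth factor receptor, higher under 2-fold (0.80) and the pan-leukocyte gene Ptprc too low to be tested. Of the haematopoietic, adipocyte and neural lists, 3, 2 and 2 genes had enough counts to be tested and none was called by edgeR or DESeq2, while 1 of 3 skeletal muscle genes was called higher and 1 lower. The part of these markers in the results was not tested.

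The same lines in normoxia gave a separate comparison on other samples. Over the 6 normoxia samples, 15 of 13934 genes were called (0.108%), 7 higher and 8 lower, and all 15 were called in the same direction in hypoxia. Rhox5, Sema3c, Scrn1, Mfap5, Heph and Pcdh10 were among them. With the replicate number as a block, since same-numbered normoxia samples deviated together, 1 gene was called, Rhox5. Wild type normoxia sample 2 stood apart, its log2 levels correlating with the other 2 wild type samples at 0.961 to 0.962 across genes while samples 1 and 3 correlated at 0.999. ΔN-VEGF normoxia sample 2 stood apart less far, at 0.990 to 0.991 with the other 2 against 0.999 between those. Without both samples numbered 2, 1662 of 14304 genes were called (11.6%), 460 higher (3.22%) and 1202 lower (8.40%), a comparison of 2 samples per line.

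Of the genes called higher in hypoxia, 260 of 424 had the same sign over all 6 normoxia samples, with a median log2 fold change of 0.19, and of those called lower 442 of 690 did, with a median of -0.24. In the 4 samples numbered 1 and 3, a choice made after the data were seen, the medians were -0.10 and -0.11. Of 443 genes called higher in hypoxia and testable in those 4 samples, 139 were higher and 168 lower at the adjusted p in edgeR. Of 703 called lower, 267 were lower and 224 higher. The interaction of line and oxygen over all 12 samples was called for 230 of 14724 genes (1.56%), and it passed the adjusted p for 173 of the 1362 genes called in hypoxia, against 3.36% of all genes. Those 1362 genes were chosen on the hypoxia difference, which the interaction contains. A share above that of all genes is therefore favoured by the choice and is not a separate result. Without both samples numbered 2, it passed for 940 of the 1362. A fit of the hypoxia contrast within all 12 samples left Ccr10, Cd59a, Cox6a2, E2f7, Hlf, Kif26a, Per1, Selenbp1, Slc22a18, Wnt10b and Wnt2b with their fold but without an adjusted p below 0.05. Rhox5, Sema3c, Scrn1, Mfap5 and Heph kept their order between the lines in every sample of both oxygen conditions, while 14 of the 24 cholesterol genes, Tspan33, Spns3 and Atf5 differed between the lines by an amount that changed with oxygen.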

How the data were processed

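TruSeq RNA libraries of 3 samples per line and oxygen condition were sequenced as single reads. The authors deposited raw read counts per gene, made with TopHat2 2.1.0 and Bowtie2 2.2.6 on GRCm38 and counted with HTSeq 0.6.1 on Ensembl genes. The strand setting is not given in the sources used here, so a gene and an overlapping antisense gene cannot be told apart, and reads that match several copies may be lost. From these counts, edgeR 4.0.16 (R 4.3.3) was run with TMM factors, filterByExpr, glmQLFit and glmQLFTest on the 6 hypoxia samples, without covariates, and Benjamini-Hochberg adjustment over 13845 genes. The same was done on the 6 normoxia samples and, for the interaction, on all 12. DESeq2 1.42.0 was an alternative. The script was checked on simulated counts.

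Gene lists, families and named genes were chosen with earlier results of these data known, and no list was tested as a set. Named are Vegfa, the 8 largest non-overlapping rises and falls among genes averaging 10 CPM or more, up to 3 called members per list and direction by adjusted p, the 3 most abundant genes near silent in 1 line, and up to 2 members per direction of families with at least 3 calls. Other list members are given as values. Where a symbol had several identifiers, the one with most counts was used.

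Deviations from the group mean of same-numbered samples correlated at -0.06 to 0.24 between the lines in hypoxia and at 0.53 to 0.60 in normoxia. In normoxia, samples 1 and 3 of opposite lines correlated nearly as strongly (0.50 to 0.51) and samples 2 negatively with both. The pattern there mostly separates samples 2 from the rest. No main fit used the replicate number, which entered as a block in alternative fits only. All 12 columns were used. Some genes are not reported here. Counting intervals cover counting error only.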

Additional observations from a re-analysis of the deposited data

Results flagged for a closer look

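For 42 of the named genes, the difference between the lines in hypoxia differed from that in normoxia by the interaction test over the 12 samples (edgeR quasi-likelihood test, adjusted p from 6.6e-05 to 0.049). The values are log2 differences between the line difference in hypoxia and that in normoxia, with 3 samples per group. All 42 also passed without both normoxia samples numbered 2. Nearly all named genes were chosen on their hypoxia difference, which the interaction contains. In 23 genes the value was positive. The widest, above 3, were Ccr7 (4.67), Pappa2 (4.57), Spns3 (4.2), Fgf21 (3.98), Il33 (3.94), Tspan33 (3.82), Col3a1 (3.62), Slc43a2 (3.36) and Lama4 (3.16). Between 1.5 and 3 lay Dcn (2.88), Tmem229b (2.64), Emilin1 (2.5), Aldh1l2 (2.4), Atf5 (2.0), H2-T23 (1.79), Slc2a3 (1.77), Angptl4 (1.75) and Vegfa (1.57). Below 1.5 lay Dgat2 (1.31), Hk1 (1.16), Herpud1 (1.07), Hmox1 (0.93) and Zfp36 (0.88). In 19 genes the value was negative. At or beyond -2 lay Cxcl10 (-3.39), Il18r1 (-3.32), Slfn9 (-2.61), Rad54l (-2.33), Synpo2 (-2.14) and Slc16a6 (-2.14). Nearer to 0 lay Slc43a3 (-1.97), Tnxb (-1.78), Idi1 (-1.63), Krt14 (-1.5), Cyp51 (-1.42), Elovl6 (-1.42), Itga3 (-1.38), Plk3 (-1.34), Zfp326 (-1.21), Msmo1 (-1.12), Aldh2 (-0.98), Ifit2 (-0.92) and Inhba (-0.91). Single outlying samples were not tested for in groups of 3.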

How the results depend on the processing

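The 1362 hypoxia calls became 1002 in a model of all 12 samples and 1817 without a filter, with 1616 under library totals, 1363 under RLE factors, 1313 with DESeq2 and 1285 at an adjusted p below 0.01. At least 10 counts in every sample left 871, since fewer genes were tested, and without the fold limit 7896 passed. Leaving out 1 sample at a time gave 1426 to 1505. The hypoxia samples share only a number, and the replicate block gave 1371 calls. In normoxia, the 15 calls became 1 with the replicate block, 237 with DESeq2, 319 in the 12-sample model and 1662 without both samples numbered 2 (chosen after seeing the data), and 1 to 1679 when 1 sample was left out, 1679 without wild type sample 2. The interaction's 230 calls became 414 under library totals, 228 with the replicate block, 610 with DESeq2, 2633 without wild type normoxia sample 2 and 2501 without both samples numbered 2. The causes were not tested. Of 192 named calls, none reversed and 63 fell below the call limits in at least 1 of 15 alternatives, 45 of them in the 12-sample model and 24 under library totals. Depth limits genes below about 1 CPM most, as with Cxcl10 and Krt8.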
